A study of Mus musculus with 16 samples.

Results

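Expression of 10 genes of astrocytes and radial glia was followed across ribosome profiling and RNA sequencing of mouse adult neural stem cells: Gfap, Apoe, Aqp4, Aldoc, Slc1a2, Slc1a3, Clu, Glul, Aldh1l1 and Fabp7. They were chosen by name, with earlier results of these data known, and matched to rows of the deposited count table. There 10 of 10 were found among 20409 genes. Male FVB/N mice, 8 to 10 weeks old, were the source of the cells, which were taken from the dentate gyrus of wild type (WT) or Fmr1 -/y (KO) littermates. KO cells lack FMRP, which binds mRNA and ribosomes. Both genotypes were grown in medium with FGF-2 and EGF (20 ng/ml each) and received cycloheximide (100 µg/ml, 10 min), which holds ribosomes on mRNA, before harvest. Each genotype had 4 independently isolated cultures, and each culture gave a cytoplasmic RNA library and a library of ribosome footprints (stretches of mRNA covered by a ribosome and so spared by nuclease) from one lysate, 16 libraries in all. Replicates 1 and 2 form one set and replicates 3 and 4 another, since the footprint libraries of the former have identifiers of 5 nt and those of the latter 8 nt. No identifier or batch is named in the labels for the RNA libraries, whose sets follow the same replicate numbers. The cultures are populations grown from dissected tissue, not sorted cells, so fewer cells of a type and less RNA per cell cannot be told apart in these bulk samples.

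In the adult dentate gyrus the neural stem cell is itself a glial cell: radial glia-like stem cells share much of their expression with astrocytes, including the glutamate transporters, the lipid-binding proteins and the intermediate filament GFAP. The 10 genes cover these roles. Gfap encodes the filament protein; Slc1a2 and Slc1a3 encode the transporters GLT-1 and GLAST, which clear glutamate, and Glul encodes glutamine synthetase, which turns that glutamate into glutamine. Apoe and Clu encode secreted lipid carriers, and Fabp7 encodes brain lipid-binding protein, a fatty acid carrier that marks radial glia. Aldoc encodes a brain aldolase of glycolysis, Aldh1l1 a folate enzyme used as an astrocyte marker, and Aqp4 the water channel of astrocyte endfeet. GLAST and brain lipid-binding protein are found in radial glia as well as in astrocytes, while GLT-1 and the water channel are better known from maturing astrocytes.

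The sequences before the start sites of 5 of the genes are printed because these genes differed most in how they varied between cultures: Gfap, Apoe and Slc1a2 had the largest differences between replicate sets in both assays, Slc1a3 a smaller one in the same direction, and Glul a small one in the opposite direction that did not pass the test. Each window runs from 250 bases before to 10 bases after a RefSeq start site (GRCm38.p6, the assembly of mm10), 5′ to 3′ on the strand of the gene, and capitals mark a match to TTCNNNGAA, the letters bound by STAT factors, which act in the signalling that turns on Gfap in astrocytes.
Gfap (chr11:102897191-102897450, minus strand): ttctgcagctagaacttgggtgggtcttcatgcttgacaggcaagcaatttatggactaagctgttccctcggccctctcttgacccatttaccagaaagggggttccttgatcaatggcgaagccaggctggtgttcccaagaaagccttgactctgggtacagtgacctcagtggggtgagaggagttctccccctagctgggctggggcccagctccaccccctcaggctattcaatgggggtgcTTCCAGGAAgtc
Apoe (chr7:19699179-19699438, minus strand): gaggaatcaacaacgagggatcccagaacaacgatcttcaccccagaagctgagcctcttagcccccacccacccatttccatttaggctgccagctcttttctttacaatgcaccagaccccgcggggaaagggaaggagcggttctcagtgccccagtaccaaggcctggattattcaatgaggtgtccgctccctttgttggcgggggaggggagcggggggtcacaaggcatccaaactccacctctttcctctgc
Slc1a2 (chr2:102706188-102706447, plus strand): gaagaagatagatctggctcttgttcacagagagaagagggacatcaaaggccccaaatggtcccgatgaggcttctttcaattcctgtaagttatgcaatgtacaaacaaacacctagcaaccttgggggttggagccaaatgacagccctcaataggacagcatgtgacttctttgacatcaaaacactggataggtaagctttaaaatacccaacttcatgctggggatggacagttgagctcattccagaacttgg
Slc1a3 (chr15:8710798-8711057, minus strand): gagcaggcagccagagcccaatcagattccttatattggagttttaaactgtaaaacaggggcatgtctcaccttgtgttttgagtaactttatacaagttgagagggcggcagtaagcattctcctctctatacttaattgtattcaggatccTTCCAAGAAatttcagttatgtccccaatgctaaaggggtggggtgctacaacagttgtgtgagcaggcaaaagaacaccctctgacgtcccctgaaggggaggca
Glul (chr1:153899679-153899938, plus strand): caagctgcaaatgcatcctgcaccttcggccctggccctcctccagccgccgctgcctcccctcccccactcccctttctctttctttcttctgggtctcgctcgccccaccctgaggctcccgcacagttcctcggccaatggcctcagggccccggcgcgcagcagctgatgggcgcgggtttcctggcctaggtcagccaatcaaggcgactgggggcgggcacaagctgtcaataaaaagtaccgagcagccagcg

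Windows were found for 8 of the 10 genes and were searched whole, 300 bases from 250 before to 50 after the start, on both strands. TTCNNNGAA was present in 2 of the 8, Gfap and Slc1a3, and in 8.47% of 27025 windows of the same length. In Gfap the match, TTCCAGGAA, began 2 bases before the start site. In Slc1a3 it was TTCCAAGAA, 96 bases before the start. The RBPJ letters GTGGGAA, read by the Notch pathway, were present in 1 of the 8, Aldoc, and in 6.39% of all windows. The NFI letters, TTGGC followed after 5 bases by GCCAA, were in none of the 8 and in 0.0407% of all windows. No match overlapped another. The windows of Apoe and Slc1a2 lie inside the span that RefSeq gives for the gene (chr7:19696244-19701310 and chr2:102658239-102790784), so they belong to a start site other than the outermost. The other genes printed lie at chr11:102887336-102897200 (Gfap), chr15:8634124-8710807 (Slc1a3) and chr1:153899929-153909723 (Glul), all protein-coding.

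RNA libraries held 5330018 to 6580305 counts each. Footprint libraries of replicates 1 and 2 held 13047613 to 17147612 counts and those of replicates 3 and 4 held 9397586 to 10806455. The targeted gene Fmr1 stood at 129 to 149.6 CPM (counts scaled to library size by TMM) in WT footprints and at 12.7 to 27.0 CPM in KO footprints, with no overlap. In RNA its ranges overlapped, from 27.4 to 107 CPM in WT and from 3.35 to 30.8 CPM in KO. Genes of radial glia and neural stem cells were abundant as a sum, as the label of the cells has it, but not each of them. The 26 genes of this list summed to 9449 to 18190 CPM per RNA library. Vim and Nes, which encode the filament proteins vimentin and nestin, had means of 2922 and 2419 CPM. In WT RNA 21 of the 26 had a mean over 1 CPM, and 3 had no count in any library. Microglia markers were at or near 0, summing to at most 1.38 CPM in any library, with Aif1 and Cx3cr1 at 0 in all 16.

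Compared per length of transcript, the 10 genes covered a wide range of levels. On the scale of the authors' TPM, which they rounded to whole numbers, the median over the 4 WT RNA libraries was 1706 for Fabp7, 923 for Glul, 531.5 for Slc1a3, 429 for Aldoc, 410 for Apoe, 56 for Gfap, 33 for Slc1a2, 10.5 for Aldh1l1, 7.5 for Clu and 1 for Aqp4. The ranges of neighbours in this order overlapped or touched in each case, so the order of neighbours is not fixed by 4 libraries. Apoe alone ran from 16 to 5192 TPM. In WT footprints Fabp7 led with a median of 5934 TPM, and its lowest library (4327) was above the highest of Glul (1761), the next in order. Further down the order, the lowest WT footprint value of Slc1a3 (241) was above the highest of Gfap (135), and the other neighbours overlapped.

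**Figure D1:**
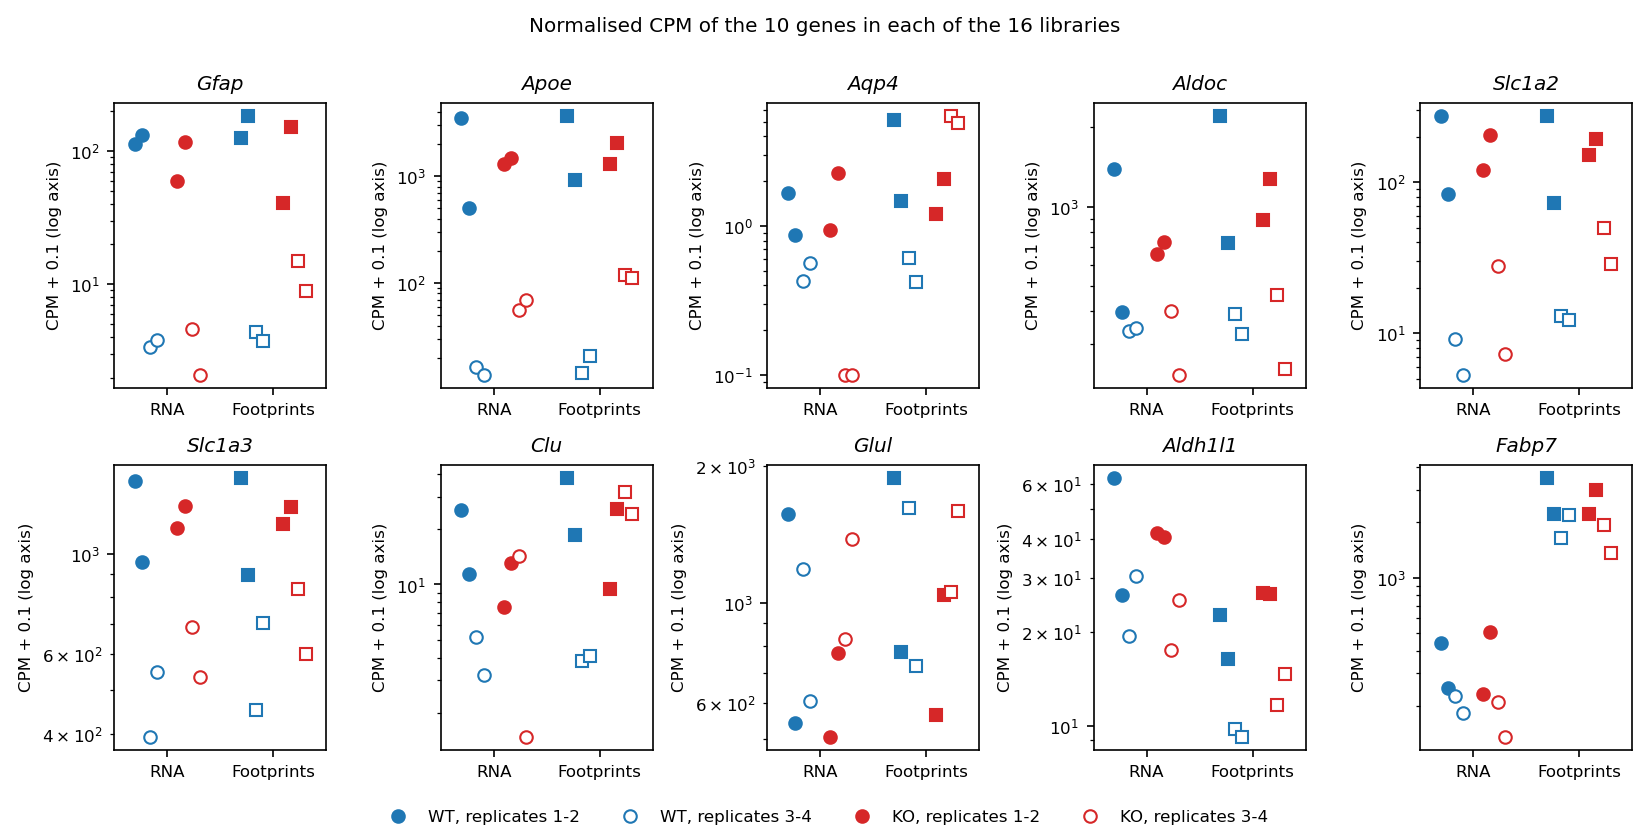
Normalised CPM of each of the 10 genes in RNA (circles) and footprints (squares), one point per library, on a log axis with 0.1 added; WT is blue, KO red, replicates 1 and 2 are filled and replicates 3 and 4 open. For Gfap, Apoe and Slc1a2 every filled point lies above every open point in both assays, while Glul shows no such separation and Aqp4 has open KO footprint points among the highest.

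The first comparison set replicates 1 and 2 against replicates 3 and 4, 4 libraries against 4 in each assay with genotype in the fit, because the cultures differed far more than the genotypes. Gfap, Apoe, Slc1a2, Slc1a3 and Aldoc were higher in replicates 1 and 2 in RNA, and the same 5 genes with Aldh1l1 were higher in footprints; no member was lower. That is 5 of the 9 members tested in RNA (Aqp4 had too few counts), where 13.1% of the 11097 genes tested were higher and 12.1% lower, and 6 of 10 in footprints, where 11.5% of 11472 genes were higher and 7.56% lower. The median log2 difference was 1.26 over the members in RNA and 1.02 in footprints, against 0.03 and -0.0011 over all genes tested. In RNA all 4 libraries of replicates 1 and 2 were above all 4 of replicates 3 and 4 for 5 of 9 members (Gfap, Apoe, Slc1a2, Slc1a3 and Fabp7), as for 14.6% of all genes. In footprints this held for 7 of 10 (these 5, Aldoc and Aldh1l1), as for 15.98% of genes.

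Gfap had the smallest p of all 11097 genes in the RNA comparison. Its RNA level, as CPM in replicates 1 to 4, was 113, 131, 3.29 and 3.75 in WT and 60.0, 117, 4.55 and 1.98 in KO. Footprints were 125, 184, 4.26 and 3.67 CPM in WT and 40.5, 151, 14.9 and 8.89 CPM in KO. In both assays all 4 libraries of replicates 1 and 2 were above all 4 of replicates 3 and 4, in which the RNA values rest on only 13 to 28 counts each. The log2 difference was 4.94 in RNA (SE 0.33, edgeR adjusted p = 0.00132) and 4.07 in footprints (SE 0.63, edgeR adjusted p = 0.0123).

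Of the lipid carriers, Apoe showed the largest difference between sets of any member. Apoe RNA was 3507, 501, 16.3 and 13.6 CPM in WT cultures 1 to 4 and 1289, 1466, 55.7 and 69.5 CPM in KO cultures 1 to 4. Its footprints were 3672, 929, 14.2 and 20.9 CPM in WT and 1286, 2044, 118 and 111 CPM in KO. The sets did not overlap, and even the lowest value of replicates 1 and 2 (WT 2) was far above the highest of replicates 3 and 4 in each assay. The log2 difference was 5.73 in RNA (SE 0.80, edgeR adjusted p = 0.00751) and 5.42 in footprints (SE 0.85, edgeR adjusted p = 0.0123). Clu, the other secreted carrier, did not pass. Clu RNA was 25.3, 11.4, 5.10 and 3.13 CPM in WT and 7.44, 12.9, 14.1 and 1.37 CPM in KO, a log2 difference between sets of 1.26 (SE 0.70, edgeR adjusted p = 0.204). Its sets separated in WT, and KO 3 was as high as the libraries of replicates 1 and 2. Leaving out each library in turn gave RNA differences from 0.83 to 2.39, with edgeR adjusted p up to 0.432. Only the omission of KO 3 passed, at 2.39 (edgeR adjusted p = 0.0194). Taking out the library that overlaps the other set favours such a call. Fabp7 did not overlap between sets in either assay, with RNA at 231 to 505 CPM in replicates 1 and 2 and 134 to 227 CPM in replicates 3 and 4, but its log2 differences of 0.92 and 0.62 had edgeR adjusted p = 0.0514 and 0.0727.

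The 2 glutamate transporters both rose in replicates 1 and 2, and glutamine synthetase did not pass. Slc1a2 RNA was 273, 83.3, 9.06 and 5.16 CPM in WT and 121, 205, 27.6 and 7.15 CPM in KO, with a log2 difference of 3.91 (SE 0.60, edgeR adjusted p = 0.0083). Its footprints were 276, 72.5, 12.9 and 12.1 CPM in WT and 151, 193, 50.0 and 28.4 CPM in KO, with a log2 difference of 2.95 (SE 0.53, edgeR adjusted p = 0.015). The sets did not overlap in either assay, and KO 3 was the highest library of its set in both. Slc1a3 was abundant in every culture and separated by a smaller factor. Slc1a3 RNA was 1445, 956, 393 and 548 CPM in WT and 1140.5, 1273, 687 and 534 CPM in KO, a log2 difference of 1.17 (SE 0.20, edgeR adjusted p = 0.00932). In footprints the Slc1a3 difference was 0.90 (SE 0.22, edgeR adjusted p = 0.0319), again with no overlap of the sets. Glul RNA was 1567, 542, 1186 and 607 CPM in WT and 504, 772, 832 and 1382 CPM in KO, so that each set held both high and low cultures. Its log2 differences were -0.28 in RNA and -0.27 in footprints (edgeR adjusted p = 0.633 and 0.661), and with WT libraries alone they were 0.25 and 0.19.

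Of the metabolic enzymes, Aldoc RNA was 1394, 397, 337 and 347 CPM in WT and 661, 736, 399.9 and 229 CPM in KO; WT 1 was far above the rest, and WT 2 and KO 3 were at about the same level, so the RNA sets overlapped. The log2 difference was 1.27 in RNA (SE 0.36, edgeR adjusted p = 0.0337) and 1.82 in footprints (SE 0.37, edgeR adjusted p = 0.0203), where the sets did not overlap. The RNA call of Aldoc was lost when any 1 library other than KO 3 or WT 2 was left out, with adjusted p from 0.0512 to 0.0951 by edgeR. Aldh1l1 footprints were 22.6, 16.3, 9.63 and 9.08 CPM in WT and 26.6, 26.4, 11.6 and 14.6 CPM in KO, with no overlap of the sets and a log2 difference of 1.03 (SE 0.16, edgeR adjusted p = 0.0118). Aldh1l1 RNA differed by 0.89 with an edgeR adjusted p of 0.0563, and its sets overlapped, since WT 4 (30.2 CPM) was above WT 2 (26.2 CPM). Aqp4 was barely detected and is described with the genotypes.

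Within 1 genotype, where only 2 libraries stand against 2, the direction of these differences was the same for each called member. The Apoe difference was 7.09 with WT libraries only and 4.46 with KO libraries only in RNA, and the latter alone passed (edgeR adjusted p = 0.0295). For Gfap they were 5.12 and 4.75, with edgeR adjusted p = 0.0725 and 0.0983. In footprints the calls of Slc1a2 were lost without WT 3 (edgeR adjusted p = 0.0585) or WT 4 (0.0537). Those of Slc1a3 were lost without WT 3, WT 4, KO 1, KO 2 or KO 4 (0.058 to 0.0853) and those of Aldoc without WT 3, WT 4, KO 2 or KO 4 (0.0524 to 0.0663). In footprints the set is the same split as the identifier length and the difference in depth, so these cannot be told apart there; in RNA the total counts of the sets overlapped, at 5330018 to 6364191 and 5927634 to 6580305.

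**Figure D2:**
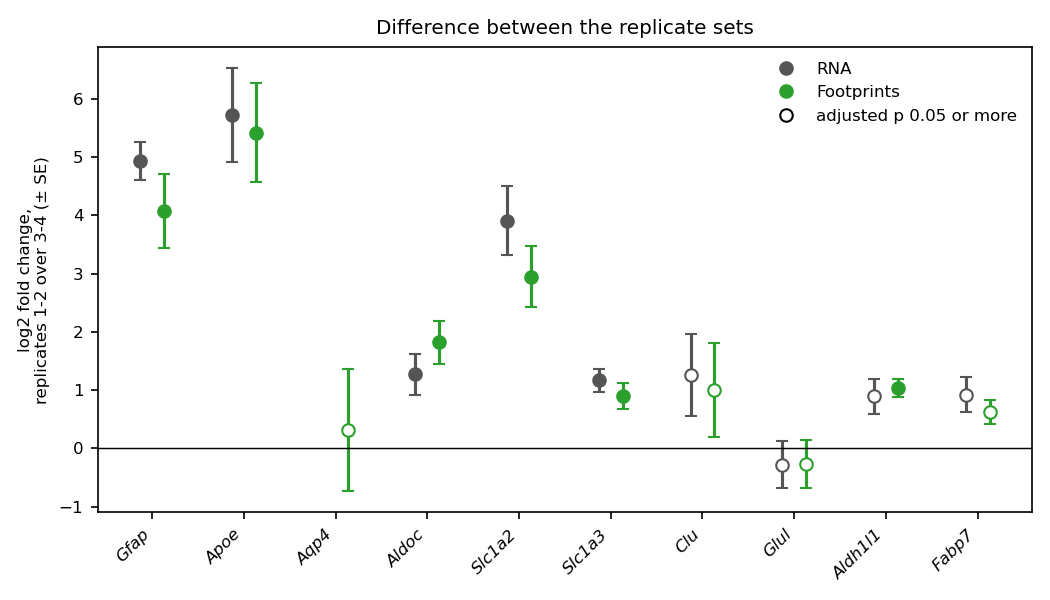
Log2 fold change of replicates 1 and 2 over replicates 3 and 4 for each gene, in RNA (grey) and footprints (green), as the edgeR estimate with bars of 1 SE; open points have an adjusted p of 0.05 or more. Apoe, Gfap and Slc1a2 stand highest in both assays and Glul lies just under 0; Aqp4 was tested in footprints only.

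The spread of Apoe, Gfap and Slc1a2 among cultures was among the widest of the transcriptome. The members were chosen with earlier results of these data known, so their ranks describe them and are no independent test. Within genotypes the SD of log2 CPM in RNA was 3.30 for Apoe, 2.82 for Gfap and 2.42 for Slc1a2, at percentiles 99.9, 99.75 and 99.52 of 11097 genes, whose median was 0.471. Once the replicate set was also taken out, the SD of Gfap fell to 0.477, at percentile 68.41, while Apoe and Clu were still at 1.10 and 1.13, at percentiles 95.27 and 95.65. The SD of Slc1a3 RNA was 0.294 within sets, at percentile 39.51, and that of Glul 0.707, at percentile 85.12. In footprints the SD of Gfap within sets was wider than in RNA, at 1.03 (percentile 94.9 of 11472 genes), beside 1.15 for Apoe and 1.26 for Clu. Glul, Clu and Aqp4 kept their footprint spread when the sets were taken out: the SD went from 0.665 to 0.703 for Glul, from 1.28 to 1.26 for Clu and from 1.29 to 1.41 for Aqp4.

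Other genes of the same biology differed between the sets to an extent that depended on the list, most of all for further astrocyte genes. Their counts stand beside 13.1% of all genes higher and 12.1% lower in RNA, and 11.5% and 7.56% in footprints. Among 29 further astrocyte genes tested in RNA, 18 were higher in replicates 1 and 2 and none lower (median log2 difference 1.50), and among 33 tested in footprints 21 were higher and 1, Pla2g7, a phospholipase, lower (median 1.702). The 2 most abundant of them were Acsbg1, an acyl-CoA synthetase, with log2 differences of -0.27 in RNA and 0.26 in footprints that did not pass, and Sparcl1, a secreted matrix protein, at 1.30 in RNA (edgeR adjusted p = 0.0206, and 0.0612 without WT 4) and 0.91 in footprints (0.119). Of 21 radial glia and neural stem cell genes 6 were higher and none lower in each assay, with medians of 0.34 and 0.51. Among the most abundant, Vim differed by 0.16 and 0.15 and Nes RNA by -0.45, none of which passed. Nes footprints did not pass either, with differences from -0.78 to -0.48 when each library was left out in turn. Only the omission of WT 2 gave a call (edgeR adjusted p = 0.02575). Ptprz1, a receptor phosphatase of radial glia, rose by 1.97 in RNA (edgeR adjusted p = 0.00767) and 1.32 in footprints (0.0357). The footprint call of Ptprz1 was lost when any 1 library other than WT 2 was left out (0.0528 to 0.1015).

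Signals and factors of astrocyte fate, such as STAT, BMP, Notch and NFI proteins, had 12 genes higher and 1 lower (Id3) of 23 in RNA, and 4 higher and none lower of 24 in footprints, with medians of 0.77 and 0.47. Nfib, a nuclear factor of gliogenesis, rose in RNA by 0.85 (edgeR adjusted p = 0.0231; 0.0537 to 0.0773 without KO 2, KO 4, WT 2, WT 3 or WT 4) and had 0.19 in footprints. The most abundant of the list in RNA, Sall3 and Nfix, and Stat3 in footprints had differences of 0.42, 0.55 and 0.96 that did not pass. Reactive astrocyte genes had 3 of 10 higher in RNA and 5 of 10 in footprints, none lower, with medians of 1.02 and 1.46. Of these, the calcium-binding protein gene S100a10 rose in footprints by 1.84 (edgeR adjusted p = 0.0225; lost without WT 3, WT 4 or KO 2), whereas Cd44, a hyaluronan receptor, and Fkbp5, a co-chaperone, had 0.07 and -0.20 in RNA and did not pass.

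Partners of the lipid carriers went both ways. Of 14 lipoprotein handling genes tested in RNA 4 were higher and 1 lower, and of 15 in footprints 5 were higher and 1 lower. Lrp1, a receptor that takes up apolipoprotein E, rose by 1.69 in RNA (edgeR adjusted p = 0.0111) and 1.96 in footprints (0.0124). Around the transporters, 2 of 16 genes of the glutamate and glutamine cycle were higher and 1 lower in RNA, and 2 higher and 2 lower in footprints. The counts of higher genes were near the shares of all genes, 13.1% in RNA and 11.5% in footprints (12.1% and 7.56% lower). Glud1, glutamate dehydrogenase, rose in both assays (1.46 and 1.72; edgeR adjusted p = 0.00844 and 0.0123). Got2, an aspartate aminotransferase of mitochondria, fell by 0.75 in RNA (0.0149 by edgeR, and 0.0519 without WT 4) and had -0.18 in footprints, and Slc38a3, a glutamine transporter, had -0.44 in RNA. Of paralogs of the members none of 8 was higher in either assay and 1, the fatty acid carrier Fabp5, was lower in RNA (-0.65, edgeR adjusted p = 0.04; lost without any 1 library other than KO 4, 0.0561 to 0.1124). Aldoa, the general aldolase, had -0.16 in RNA and 0.35 in footprints, beside 1.27 and 1.82 of Aldoc.

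Markers of other cell types moved with the sets in part, on few genes tested per list. Over all genes 13.1% were higher and 12.1% lower in RNA, and 11.5% and 7.56% in footprints. Of oligodendrocyte lineage genes 3 of 6 in RNA and 3 of 7 in footprints were higher in replicates 1 and 2 (Cspg4 and Cnp among them in both), and their 12 genes summed to 1310 to 2163 CPM against 1422 to 1930 CPM in RNA. In footprints these sums did not overlap, at 2011 to 2793 CPM in replicates 1 and 2 and 1388 to 1908 CPM in replicates 3 and 4. Of neuroblast and neuron genes 2 of 5 were higher in RNA, and 1 of 10 was higher and 1 lower in footprints, with RNA sums of 425 to 972 CPM against 289 to 662 CPM and footprint sums of 1082 to 2098 CPM against 1001 to 1500 CPM. The ependymal list had RNA sums of 23.0 to 36.3 CPM against 37.9 to 80.0 CPM and Foxj1 lower in both assays, while Tmem212 was at 0 throughout. Endothelial and mural genes had none of 3 and none of 4 called, with sums of at most 41.8 CPM and Cldn5 at 0 throughout. The meningeal list had no gene tested in RNA and 1 of 2 higher in footprints (Cdh1, an adhesion protein of epithelia), and its sums, up to 45.6 CPM in replicates 1 and 2 against at most 10.2 CPM in replicates 3 and 4, were mostly Pdgfra, which oligodendrocyte precursors also express. No microglia gene had enough counts to be tested. The part of these cell types in the differences of the members was not tested.

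The second comparison asked whether the members differed between KO and WT. None passed in RNA, in footprints or in footprints relative to RNA. In RNA 0 of 9 members tested were called, where 0.00901% of 11097 genes were (1 higher, none lower), and log2 fold changes of KO over WT ran from -0.49 to 0.12, positive in 1 of 9, with a median of -0.16 against 0.01 for all genes. In footprints 0 of 10 were called, where 0.0349% of 11472 genes were (3 higher, 1 lower), and fold changes ran from -0.28 to 1.08, positive in 7 of 10, with a median of 0.39 against 0.01. In translational efficiency, tested as the assay by genotype interaction, 0 of 9 were called, as were 0% of 10863 genes by edgeR; 14 genes (0.129%) and no member had an unadjusted p under 0.05, and DESeq2 also called none. The members' efficiency estimates ran from -0.12 to 1.62, and with the culture as a block from -0.08 to 0.97. The identifier term of this fit took the replicate set out of footprints but not out of RNA. Without that term the efficiency estimate of Apoe went from 1.62 to 0.17 and that of Gfap from 0.85 to -0.066. The separate fits of RNA and footprints differed in the same way, so their signs are not directly comparable. With the set as a term, Apoe RNA was 0.71 and Slc1a2 RNA 0.52.

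The wide spread of the cultures limits this comparison. Apoe RNA had an estimate of -0.49 with an SE of 1.60, and its sign turned to 1.12 once the replicate number was a block (adjusted p = 0.825 by edgeR) and to 2.03 without WT 1. Slc1a2 RNA likewise went from -0.04 (SE 1.23) to 0.54 with the block. Gfap RNA was -0.46 (SE 1.37), and -0.41 with the block. Glul was -0.16 in RNA and -0.28 in footprints; KO over WT was lower in pairs 1 and 3 and higher in pairs 2 and 4 in both assays. The fold changes of Slc1a3, Aldoc and Fabp7 were between -0.29 and 0.18 on the log2 scale in both assays and their pairs went both ways.

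Aldh1l1 footprints came nearest to a call. Its footprints, listed above, were higher in KO than in WT in 4 of 4 same-numbered pairs, by log2 differences of 0.24, 0.70, 0.27 and 0.69. The share of all genes with such pairs was not counted. The fold change was 0.47 (SE 0.16), with an unadjusted p of 0.0179 and an edgeR adjusted p of 0.933, where 4.59% of genes had an unadjusted p under 0.05. Without the identifier term it was 0.46 (SE 0.38), with an unadjusted p of 0.262 by edgeR. In RNA Aldh1l1 was 62.7, 26.2, 19.4 and 30.2 CPM in WT and 41.8, 40.6, 17.4 and 25.4 CPM in KO, higher in KO in 1 of 4 pairs, with an estimate of -0.15. The efficiency estimate was 0.64 (SE 0.48, edgeR adjusted p = 1), with unadjusted p = 0.207 by edgeR, or 0.0308 with the culture as a block. After adjustment 0 genes passed in the blocked efficiency fit.

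**Figure D3:**
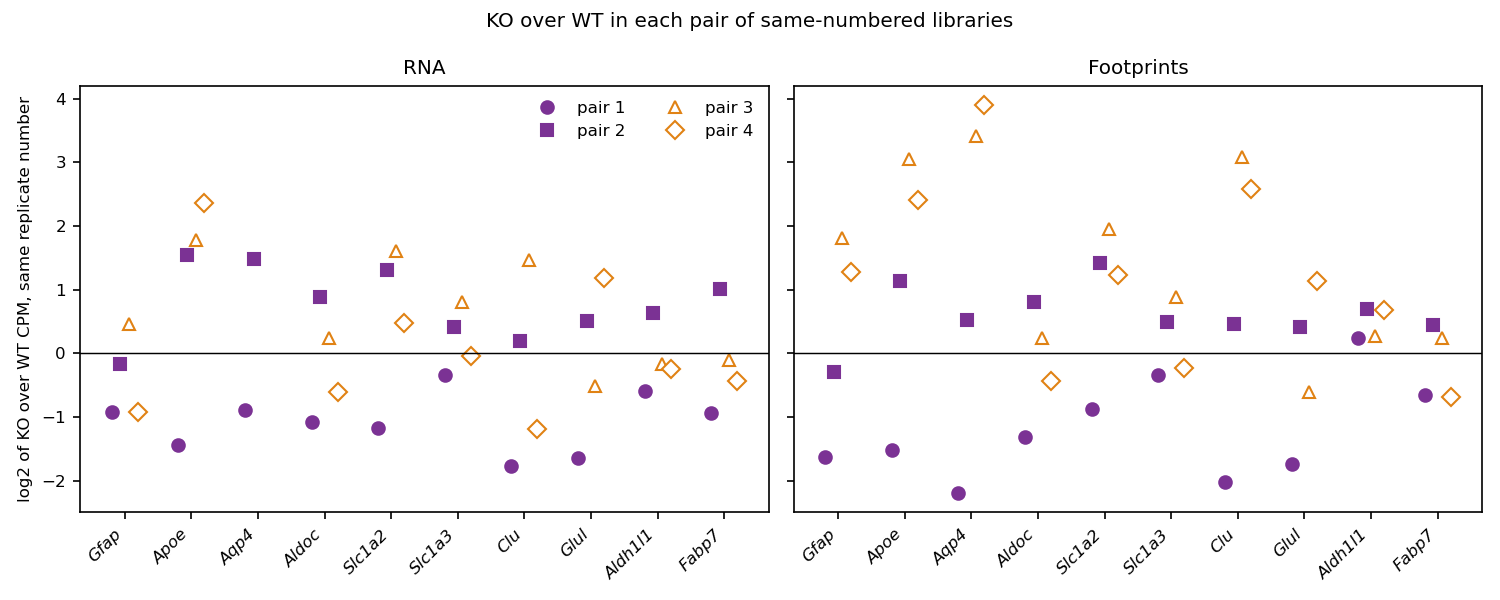
Log2 of KO over WT CPM in each pair of libraries with the same replicate number, for RNA (left) and footprints (right); filled purple symbols are pairs 1 and 2, open orange symbols pairs 3 and 4, and Aqp4 RNA has no value in pairs 3 and 4, where KO had no counts. In footprints the open symbols of Apoe, Aqp4, Clu, Gfap and Slc1a2 lie above 0 and above pair 1, and Aldh1l1 is above 0 in all 4 pairs.

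Within replicates 3 and 4, both KO footprint libraries were above both WT libraries for 6 of 10 members: Gfap, Apoe, Aqp4, Slc1a2, Clu and Aldh1l1. Of all 11472 genes 13.9% showed this order. Within replicates 1 and 2 it held for 1 of 10, Aldh1l1, against 14.8% of genes. In RNA it held for Apoe alone of 9 in replicates 3 and 4 (12.2% of genes) and for none in replicates 1 and 2 (17.9%). This split by set was looked at after the values were seen, and no member passed adjustment in either set alone (edgeR adjusted p of at least 0.251 in replicates 3 and 4).

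Apoe showed it in both assays: in replicates 3 and 4 the KO footprints were 118 and 111 CPM and the WT footprints 14.2 and 20.9 CPM, and the RNA was 55.7 and 69.5 CPM in KO and 16.3 and 13.6 CPM in WT. The fold change within that set was 2.69 in footprints and 2.07 in RNA, against -0.46 and -0.54 in replicates 1 and 2. Clu footprints were 38.0, 18.6, 3.75 and 4.00 CPM in WT and 9.38, 25.5, 31.9 and 24.0 CPM in KO, so that KO 3 and KO 4 stood at the level of replicates 1 and 2 and WT 3 and WT 4 did not. In KO 4 the Clu RNA, at 1.37 CPM from 9 counts, did not share this, and in KO 3 it did, at 14.1 CPM. Gfap footprints in replicates 3 and 4 were 14.9 and 8.89 CPM in KO against 4.26 and 3.67 CPM in WT, while the RNA overlapped.

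The Aqp4 values differed between the assays in the same 2 cultures. Aqp4 footprints were 5.01, 1.37, 0.507 and 0.324 CPM in WT, from 69, 18, 5 and 3 counts, and 1.10, 1.96, 5.39 and 4.81 CPM in KO, from 15, 33, 58 and 52 counts. Aqp4 RNA counts were 8, 5, 2 and 3 in WT and 5, 13, 0 and 0 in KO. A count of 0 allows up to 3 counts, or 0.488 CPM in KO 3 and 0.456 CPM in KO 4, so the footprint CPM was at least 11-fold and 10.6-fold higher than that limit for RNA in these cultures. These limits cover counting error only. Whether reads of another library are among these footprint counts, or among those of Clu in KO 4, was not tested. In the other 6 cultures the ratio of footprints to RNA ran from 0.691 to 3.19.

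Whether the KO effect differed between the sets was tested as an interaction added after the data were seen. In footprints the difference (KO over WT in replicates 1 and 2 minus that in 3 and 4) was -4.63 for Aqp4, -3.54 for Clu, -3.17 for Apoe and -2.28 for Gfap on the log2 scale. Their unadjusted p were 0.00273, 0.00236, 0.00756 and 0.0328 by edgeR, so 4 of 10 members were under 0.05 where 2.19% of all genes were, and each adjusted p was 0.9997. edgeR called 0% of the 11472 genes. DESeq2 called 27 genes (0.235%), all lower, with Clu (adjusted p = 0.00946) and Apoe (0.0304) among them. Without WT 2, edgeR gave adjusted p = 0.037 for Apoe and 0.0474 for Aqp4, with 110 genes called higher and 11 lower. Without WT 1 the Apoe estimate was -1.86, and without KO 2 that of Gfap was -3.52; the unadjusted p of Gfap was above 0.05 without KO 3, WT 2, WT 3 or WT 4. In RNA none of 9 members passed adjustment, nor did any gene (0%). At an unadjusted p under 0.05 there were 133 genes (1.199%), and Apoe was the one member among them, with a log2 estimate of -2.61 and an edgeR adjusted p of 1. Without WT 1 that estimate was -0.59, and its unadjusted p was above 0.05 when any 1 library other than WT 2 was left out.

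Lists around the members gave no call between genotypes by edgeR. Over all of these lists and the markers of other cell types, 0 of 133 genes tested in RNA and 0 of 149 in footprints passed, with 7 and 19 at an unadjusted p under 0.05. Of all genes 208 of 11097 in RNA and 527 of 11472 (4.59%) in footprints had an unadjusted p under 0.05, a smaller share than in the lists. DESeq2 called 2 of them in RNA (Sparcl1 and Bcas1, a gene of maturing oligodendrocytes) and 4 in footprints (these 2, Pla2g7 and the neuronal tubulin-binding protein gene Stmn2) and no member in either assay. Over all genes DESeq2 called 13 higher and 7 lower in RNA and 56 higher and 26 lower in footprints. The medians of the astrocyte, radial glia, fate signal, reactive, lipoprotein, glutamate cycle and paralog lists were between -0.41 and 0.06 in RNA and between -0.27 and 0.09 in footprints.

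The third comparison set footprints against RNA in the WT cultures, as a rough measure of how densely ribosomes occupied each mRNA relative to other genes. It used counts that were not corrected for transcript length. Fabp7 was the one member called, higher in footprints by 3.29 on the log2 scale (SE 0.37, edgeR adjusted p = 0.000169), where 43.1% of 11323 genes were called (22.2% higher). Fabp7 RNA was 441, 249, 227 and 182 CPM in WT and its footprints 3498, 2215, 1636 and 2188 CPM in the same cultures. In KO cultures RNA was 231, 505, 211 and 134 CPM and footprints 2219, 3022, 1941 and 1364 CPM. The ratio of footprint CPM to RNA CPM was between 5.99 and 12.1 in all 8 cultures, with a median of 9.04. The size of this gap depended on the scale. In the authors' TPM, Fabp7 was 3235, 1997, 1415 and 1076 in WT RNA. Its WT footprints were 10877, 6300, 4327 and 5568 TPM, higher in each culture but by a smaller factor than in CPM. RNA and footprint libraries were made by different chemistries, and footprints cover coding sequence, so a ratio describes a gene relative to others in these libraries.

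Aldh1l1 lay on the other side, with a ratio of 0.301 to 0.668, below 1 in 8 of 8 cultures. Its log2 difference in WT was -1.10 (SE 0.43, edgeR adjusted p = 0.0665), and with the culture as a block -1.05 (edgeR adjusted p = 9.72e-04). The block pairs the 2 libraries of a lysate and raised the share called to 69.5% of genes. With it Glul (0.55, edgeR adjusted p = 0.00425), Aldoc (0.60, 0.0099), Apoe (0.54, 0.0313) and Gfap (0.44, 0.0384) were also higher in footprints by these counts. Slc1a2, Slc1a3 and Clu did not pass. The direction did not hold in TPM. In WT cultures 1 to 4 Glul TPM was 1814, 675, 1171 and 564 in RNA and 1761, 664, 1286 and 556 in footprints. Gfap TPM was 109, 136, 3 and 3 in RNA and 101, 135, 3 and 2 in footprints. Aldoc and Apoe TPM were higher in footprints in some WT cultures and lower in others. Glul had the narrowest ratio of CPM, 1.12 to 1.43 and above 1 in 8 of 8 cultures, although its RNA level among them ran from 504 to 1567 CPM. The Slc1a3 ratio ran from 0.939 to 1.28. Clu had the widest, 0.735 to 17.5, with the highest in KO 4, and Gfap ran from 0.675 to 4.50, with its highest values in KO 3 and KO 4.

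**Figure D4:**
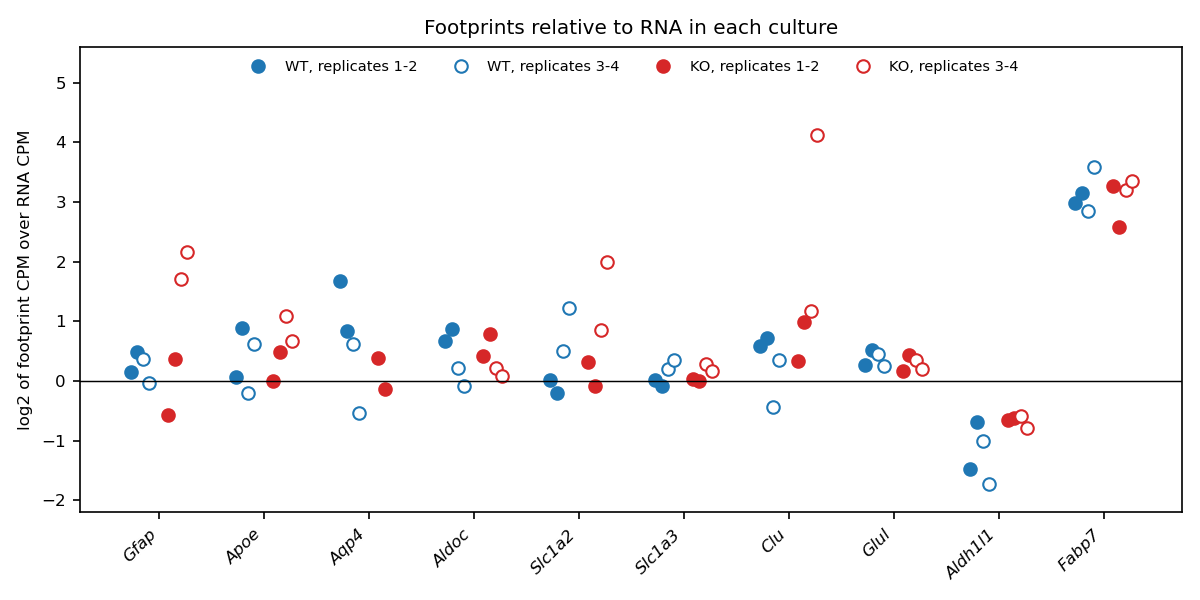
Log2 of footprint CPM over RNA CPM in each culture, for WT (blue) and KO (red), with replicates 1 and 2 filled and replicates 3 and 4 open; Aqp4 has no value in KO 3 and KO 4. Fabp7 lies between 2.58 and 3.59 and Aldh1l1 between -1.73 and -0.58 in all 8 cultures, and the highest Clu point, 4.13, is KO 4.

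The members other than Glul and Aqp4, which was not compared, followed one another across the 16 libraries, Clu less closely than most. With log2 CPM centred within each assay, Pearson's r was 0.96 between Apoe and Slc1a2, 0.92 between Gfap and Apoe, and 0.95 between Slc1a2 and Slc1a3. Clu had lower values, from 0.47 with Aldh1l1 to 0.76 with Slc1a2, Glul aside. Glul had r from -0.20 to 0.14 with the other 8 members compared. These values describe 16 libraries from 8 cultures, in which RNA and footprints share a lysate and the sets form separate clusters. Centred within assay and set, r was 0.80 between Apoe and Slc1a2, 0.32 between Gfap and Apoe, and 0.74 between Slc1a2 and Slc1a3. Not every pair of members stayed alike within sets: r was -0.10 between Gfap and Aldh1l1 and 0.09 between Aldh1l1 and Fabp7. Glul then had r of 0.54 with Apoe, 0.53 with Aldoc and 0.42 with Slc1a2, beside 0.32, 0.18 and 0.39 of Gfap with the same genes. With Slc1a3 and Clu the order was the other way, at 0.11 and 0.34 for Glul and 0.21 and 0.79 for Gfap.

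By the same measure over 9424 genes with at least 5 CPM on average in both assays, one of the 2 genes most like Slc1a2 was Slc4a4 (r = 0.97), a bicarbonate transporter that astrocytes express. Those most like Apoe were Kcnn2 (0.98) and Mgll (0.98), a potassium channel and monoacylglycerol lipase. For Gfap they were Wdr7 and Ube4a (0.97 each), for Slc1a3 Arhgap32 and Cadm4 (0.97 each), for Aldoc Man2b2 (0.98) and Tmem9b (0.97), for Aldh1l1 Bbs2 (0.93) and Myo10 (0.92), and for Fabp7 Ahcyl1 (0.92) and Nbeal1 (0.91). Glul had Dedd (0.92) and B930041F14Rik (0.89), and Clu had Plekhg1 (0.85) and Dzank1 (0.83). Between 105 and 187 genes exceeded r = 0.9 with each of Gfap, Apoe, Aldoc, Slc1a2 and Slc1a3, so that the leading pair stands among many, against 0 for Clu and 1 for Glul. Centred within set as well, Kcnn2 was still the first for Apoe (0.92) and Arhgap32 the second for Slc1a3 (0.89), and the other leading pairs changed.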

How the data were processed

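Cytoplasmic RNA and ribosome footprints were sequenced from 8 cultures, 16 libraries in all. Per the file headers, the deposited tables give estimated counts of each gene (all whole numbers) and TPM, which was rounded and is treated here as a score. The submitters' processing notes name mm10, RSEM 1.2.11, TopHat2 2.0.9, Bowtie2 2.1.0, bedtools 2.22.0, SAMtools 0.0.19 and cutadapt 1.7.1, without roles. The use of strand and the collapsing of identifiers were not given in the sources used. RSEM splits reads that match several genes, so genes with close copies are less certain.

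Of 20436 rows, 27 hold a number in place of a symbol (0.244% to 0.422% of a library's counts); these were left out, which leaves 20409 genes. Symbols matched RefSeq (GRCm38.p6) for 19269 genes and 10 of 10 members; promoter windows and positions, 1-based, come from there.

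Counts were tested with edgeR 4.0.16 in R 4.3.3 (two-sided quasi-likelihood F-test by glmQLFTest after TMM and filterByExpr), adjusted by Benjamini-Hochberg over all genes tested and a threshold of 0.05. The SE of a log2 fold change is derived from the F statistic. RNA was fitted with genotype, footprints with genotype and identifier length, and efficiency as the assay by genotype interaction with an identifier term; the replicate set was tested with genotype in the fit, and footprints against RNA over the WT libraries. Alternatives were DESeq2 1.42.0, no filter, leaving out each culture, the replicate block and single sets; the interaction of genotype with set and the set comparison within a genotype were added after seeing the data. On simulated counts with a log2 change of 3, the fit recovered 88.9% of changed genes in RNA and 98% in footprints between genotypes, and 96% and 97% between sets. For a change of 1 it recovered 5.05%, 34.3%, 18% and 36% in the same order. For efficiency it recovered 77.6% at a change of 3 and 2.06% at a change of 1. For the KO effect by set these shares were 46% and 1% in RNA and 67% and 2% in footprints. The changed genes were drawn at random from genes above a minimum mean count. The shares need not hold for members of low counts, such as Aqp4, or of much wider spread, such as Apoe, Gfap and Slc1a2. Levels are CPM scaled by TMM within an assay. Spread and likeness use log2 CPM with a prior count of 2.

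The members and gene lists were chosen with earlier results of these data known. Genes were named by rule: the members, Fmr1, from each list up to 4 genes past the threshold between genotypes or else the 2 most abundant, and the 2 genes most like each member. Pla2g7, Id3, Cspg4, Cnp, Foxj1, Cdh1, Pdgfra, Bcas1 and Stmn2 fall outside this rule and were named after their values were seen. Results for some genes that the rule names are not reported here.

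Replicate numbers come from the titles. Deviations from group means of same-numbered WT and KO libraries correlated at 0.481 to 0.613 in RNA and 0.380 to 0.540 in footprints, each above 0.1. Same-numbered libraries were treated as pairs, and blocked values are printed where they change a call. These deviations still hold the difference between sets. Differently numbered libraries of a set reached 0.368 in RNA (WT 3 with KO 4). In footprints WT 1 with KO 2 reached 0.453, above WT 2 with KO 2 (0.380). The correlations therefore do not settle the pairing by number within a set. Replicates are independently isolated cells, per the labels' protocols, and no 2 libraries held identical values. A table of the authors' own comparisons was not analysed here.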

Additional observations from a re-analysis of the deposited data

Results flagged for a closer look

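Each gene's CPM in each group of 4 libraries was searched for a library far from the other 3, with 40 groups tested, of which chance alone flags about 1 in 20. In WT RNA, Apoe stood at 3507 CPM in replicate 1 against 13.6 to 501.2 CPM in the others. In the same library Aldoc stood at 1394 CPM against 337 to 397.2 CPM. In footprints of that culture both genes were also the highest of the WT libraries, at 3672 and 2211 CPM.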

How the results depend on the processing

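Fabp7 kept its call in footprints over RNA under each alternative, and each called difference between sets kept its sign under each alternative. The replicate block changed no other call of a member than those given for footprints over RNA, and with it 0 genes passed between genotypes in RNA or footprints. DESeq2 called 13 genes higher and 7 lower in RNA and 56 higher and 26 lower in footprints between genotypes, 1545 lower in footprints between sets, and 27 lower for the KO effect by set. Without the filter 2 genes were lower in KO footprints. RNA with the set as a term, or with either set alone, had 0 genes higher; footprints had 0 called in replicates 1 and 2 and 1 higher and 1 lower in replicates 3 and 4. Between sets, WT libraries alone gave 0 calls in either assay, and KO libraries alone 1 higher and 0 lower in RNA and 37 higher and 33 lower in footprints. With the culture as a block, 4066 genes were higher and 3798 lower in WT footprints over RNA. The cause of these changes was not tested, beyond fewer libraries in single sets or genotypes.

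In RNA, KO over WT, these genes changed sign with the replicate block Apoe (1.12) and Slc1a2 (0.54), with the set as a term Apoe (0.71) and Slc1a2 (0.52), in replicates 3 and 4 only Apoe (2.07), Clu (0.91), Glul (0.30) and Slc1a2 (1.29), in replicates 1 and 2 only Fabp7 (0.087) and Slc1a3 (-0.0038). In footprints, KO over WT, these genes changed sign without the identifier term Apoe (-0.38) and Gfap (-0.56), in replicates 1 and 2 only Apoe (-0.46), Aqp4 (-1.04), Clu (-0.68), Gfap (-0.68) and Slc1a2 (-0.0051), in replicates 3 and 4 only Glul (0.17). In efficiency, KO over WT, these genes changed sign without the identifier term Aldoc (-0.020) and Gfap (-0.066), with the replicate block by culture Aldoc (-0.029). In RNA between sets, these genes changed sign with KO libraries only Aldoa (0.041), with WT libraries only Cd44 (-0.52) and Glul (0.25). In footprints between sets, these genes changed sign with KO libraries only Aqp4 (-1.71), Clu (-0.66) and Fabp5 (0.0063), with WT libraries only Cd44 (-0.41) and Glul (0.19), without the filter Fabp5 (0.00043).

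In RNA, KO over WT, leaving out each library or culture in turn changed the sign of Aldh1l1 (-0.34 to 0.31), Aldoc (-0.52 to 0.49), Apoe (-1.10 to 2.03), Clu (-0.65 to 0.46), Fabp7 (-0.51 to 0.30), Gfap (-1.50 to 0.20), Glul (-0.48 to 0.16), Slc1a2 (-0.83 to 1.48), Slc1a3 (-0.11 to 0.52). It gave 0 to 1 genes called higher in RNA, KO over WT. In footprints, KO over WT, leaving out each library or culture in turn changed the sign of Aldoc (-0.48 to 0.21), Gfap (-0.0081 to 0.90), Glul (-0.55 to 0.12). It gave 0 to 11 genes called higher and 0 to 3 genes called lower in footprints, KO over WT. In efficiency, KO over WT, leaving out each library or culture in turn changed the sign of Aldoc (-0.30 to 0.37), Apoe (-0.16 to 2.68), Fabp7 (-0.35 to 0.24), Glul (-0.24 to 0.0069), Slc1a2 (-0.017 to 1.80), Slc1a3 (-0.18 to 0.35). In RNA between sets, leaving out each library or culture in turn changed the sign of Aldoa (-0.27 to 0.0039), Cd44 (-0.20 to 0.38), Slc38a3 (-0.75 to 0.22). It gave 608 to 1544 genes called higher and 484 to 1311 genes called lower in RNA between sets. In footprints between sets, leaving out each library or culture in turn changed the sign of Aqp4 (-0.48 to 1.27), Cd44 (-0.25 to 0.29), Fabp5 (-0.11 to 0.091), Slc38a3 (-0.31 to 0.67). It gave 233 to 1358 genes called higher and 86 to 864 genes called lower in footprints between sets. It gave 1646 to 2245 genes called higher in WT footprints over RNA. In the KO effect by set in RNA, leaving out each library or culture in turn changed the sign of Aldh1l1 (-0.40 to 0.88), Aldoc (-0.88 to 0.95), Clu (-2.62 to 0.73), Fabp7 (-0.33 to 0.82), Gfap (-0.91 to 0.36). In the KO effect by set in footprints, leaving out each library or culture in turn changed the sign of Aldh1l1 (-0.26 to 0.22), Aldoc (-1.004 to 0.61), Fabp7 (-0.21 to 0.45), Slc1a3 (-0.62 to 0.12). It gave 0 to 110 genes called higher and 0 to 11 genes called lower in the KO effect by set in footprints. None of these genes was called in the comparison where its sign changed. Low counts limit Aqp4 in both assays, Clu in RNA of KO 4, and Gfap in RNA of replicates 3 and 4.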
